A study of Mus musculus with 6 samples.

Results

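The Bcl-2 family decides whether the outer mitochondrial membrane is opened in a stressed cell. Of its genes, 10 were followed here, chosen by symbol: the pro-survival members Bcl2, Bcl2l1 (Bcl-xL), Bcl2l2 (Bcl-w) and Mcl1, the pore-forming effectors Bax, Bak1 and Bok, and the BH3 members Bad, Bid and Bnip3. All 10 were among the 56748 genes of the deposited count table and all 10 were among the 13888 genes tested. The hearts came from 3 Pontin cTG mice and 3 WT littermates, males on a C57Bl/6 background. The methods give their age as 10 weeks when they were put on Ang-II. All mice of both groups were infused with Ang-II from mini-osmotic pumps over 14 days, at a daily dose of 1.5 mg/kg BW. The transgene of the Pontin cTG mice is a human Pontin (RUVBL1) cDNA with a flag tag, driven by the cardiomyocyte promoter αMHC, and the WT littermates lack it. All 6 libraries are from Ang-II hearts, so the comparison is between the genotypes under Ang-II only. Each library was made from heart tissue of 1 mouse, with the chamber not given, and in such bulk RNA fewer cells of a type and less RNA per cell cannot be told apart.

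In healthy cells the pro-survival proteins hold the effectors in check at the mitochondrion. BH3 proteins sense stress and either occupy the pro-survival proteins or switch the effectors on, after which Bax and Bak1 form pores, cytochrome c leaves the mitochondrion and caspases are activated. In the heart, loss of cardiomyocytes by this route is a known part of the response to prolonged overload, and Mcl1 and Bnip3 are in addition known for their work in mitochondrial turnover. Much of the control of this family acts on the proteins, through phosphorylation, cleavage and movement to the mitochondrion, and is not visible in mRNA.

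Promoters are shown for 3 members on which the values below turn: Mcl1 and Bnip3, which had the highest levels, and Bax, which had the largest fitted log2 difference between the groups. The sequences are from RefSeq on GRCm38.p6, 250 bases before to 50 bases after the start, 5′ to 3′ on the strand of the gene. Capitals mark every ACGTG or GCGTG, on either strand and merged where 2 overlap, which is the core that hypoxia-inducible factors bind. They stand at chr3:95658471-95658770 (plus strand) for Mcl1, chr7:138909457-138909756 (minus strand) for Bnip3 and chr7:45466849-45467148 (minus strand) for Bax.
Mcl1: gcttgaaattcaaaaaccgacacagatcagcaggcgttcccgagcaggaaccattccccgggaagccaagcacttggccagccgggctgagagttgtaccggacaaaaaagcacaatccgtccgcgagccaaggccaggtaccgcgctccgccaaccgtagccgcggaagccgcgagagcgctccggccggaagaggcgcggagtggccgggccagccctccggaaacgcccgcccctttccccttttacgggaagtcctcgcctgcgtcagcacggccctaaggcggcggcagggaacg
Bnip3: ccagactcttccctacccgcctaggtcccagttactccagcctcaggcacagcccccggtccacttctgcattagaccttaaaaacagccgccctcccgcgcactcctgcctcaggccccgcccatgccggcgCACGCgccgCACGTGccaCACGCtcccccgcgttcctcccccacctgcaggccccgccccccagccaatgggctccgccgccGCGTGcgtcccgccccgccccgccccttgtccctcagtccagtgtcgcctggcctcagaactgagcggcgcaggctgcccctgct
Bax: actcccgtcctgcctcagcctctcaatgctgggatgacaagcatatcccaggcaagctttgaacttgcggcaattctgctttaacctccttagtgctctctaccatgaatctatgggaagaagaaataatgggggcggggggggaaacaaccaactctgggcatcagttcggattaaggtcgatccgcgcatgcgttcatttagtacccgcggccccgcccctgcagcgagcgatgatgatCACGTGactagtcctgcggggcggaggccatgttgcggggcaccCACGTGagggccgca
The Bnip3 promoter held the core at 4 places, starting 117, 108, 99 and 35 bases before the start, the Bax promoter at 2 places, starting 9 bases before and 35 bases after it, and the Mcl1 promoter at 0. The 10 members have 13 promoter entries, since Bcl2l1 has 3 and Bad has 2. Of these entries 6 held the core (those of 4 members, Bcl2l1, Bax, Bnip3 and Bad), against 43.8% of all 32851 promoter entries of the same length. On the same search of both strands, GGGCGG (the GC box) was found in 8 of the 13 entries and in 35.7% of all entries, CCAAT in 2 of the 13 and in 37.4%, and TATAAA in 0 of the 13 and in 13.6%. A match of letters is a description and does not show that a factor binds there.

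Total counts ran from 12436822 to 13194038 in WT and from 14584102 to 16888124 in Pontin cTG libraries, and 23.8% to 26.7% of the counts came from mitochondrial transcripts. Mouse Ruvbl1 had between 215.8 and 221 normalised counts in WT and between 240 and 250 in Pontin cTG hearts (log2 fold change 0.18, SE 0.12, adjusted p = 0.999 in edgeR), a limited check, since RNA of the human transgene may not be counted on the mouse gene. The 8 cardiomyocyte markers were all above the filter on low counts, with a summed level of 501000 to 648400 normalised counts per library. Pontin cTG replicate 2 stood apart from the other libraries: on the first principal component, which held 47.4% of the variance, it lay at 52.8. On the same side of 0 lay WT replicate 2, at 17.6, and the remaining libraries lay between -25 and -13.45. Its genes differed from the mean of the other Pontin cTG libraries by a median of 0.36 on the log2 scale, against 0.14 to 0.24 for each other library within its group. Many of the values of the members and the pathway lists, but not all, are also given without this library.

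None of the 10 members passed an adjusted p of 0.05 in edgeR's quasi-likelihood test, and the background was the same, with 0 of 13888 genes called (0%). At an unadjusted p under 0.05 the count of members was also 0, where 285 of all genes tested (2.05%) were found. In 0 of the 10 members were the 3 Pontin cTG values all on 1 side of the 3 WT values, as they were for 8.33% of all genes tested. The fitted value was higher in Pontin cTG hearts for 7 members and lower for 3, with a median log2 fold change of 0.071 over the 10 members and 0.0013 over all genes tested. By role, the median was 0.020 for the pro-survival members, 0.12 for the effectors and 0.069 for the BH3 members. Without Pontin cTG replicate 2, the median was -0.031 for the 10 members, -0.088 for the effectors and -0.12 for the BH3 members. The sign of these medians thus changed when this library was left out. The pro-survival median was 0.050 without it, -0.012 without WT replicate 1 or WT replicate 2, and 0.15 without WT replicate 3. DESeq2 and limma-voom, run as alternatives, also called 0 members, and they called 1 and 3 genes of the whole table. In limma-voom, with all 6 libraries, the BH3 median was -0.091, that of the effectors 0.041 and that of the 10 members 0.042.

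**Figure D1:**
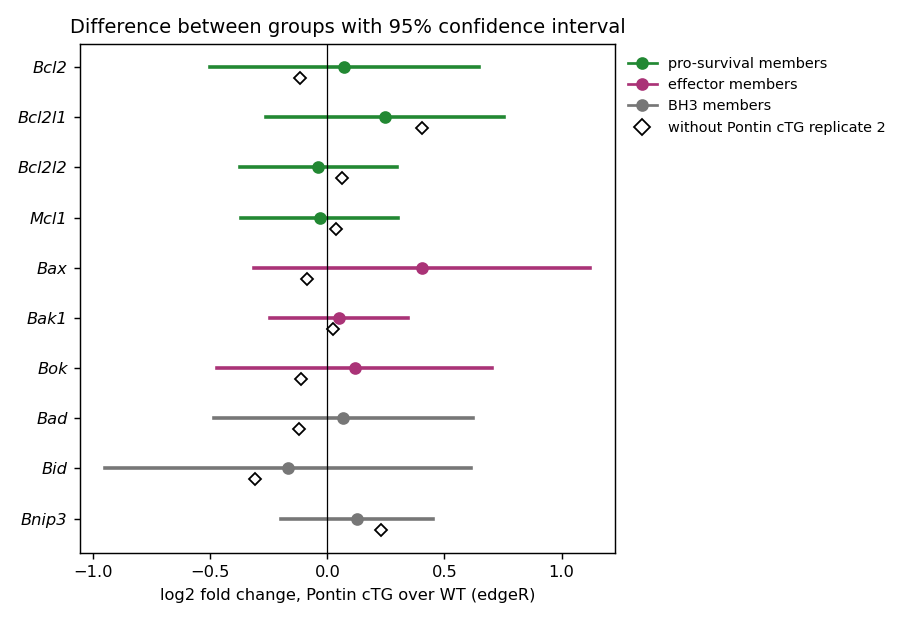
Log2 fold change of each member (x axis, Pontin cTG over WT, edgeR, n = 3 per group), with points for the fitted value, lines for the 95% confidence interval and diamonds for the value without Pontin cTG replicate 2. All 10 intervals include 0, and the diamonds of Bcl2, Bcl2l2, Mcl1, Bax, Bok and Bad lie on the other side of 0 from their points.

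Per length, the members differed in level far more than the groups did. In TPM (a length-scaled level in which every library has the same sum, computed from the deposited counts and gene lengths), Mcl1 was highest with a mean of 134.4 over the 6 libraries (118.9 to 147), followed by Bnip3 with 102.5 (91.5 to 113.2). Together the pair took between 68.5% and 77.3% of the summed TPM of the 10 members. A middle group held Bcl2l2 (mean 21.8 TPM), Bax (18.4 TPM), Bcl2l1 (16.7 TPM) and Bak1 (14.9 TPM), in which each member's range over the libraries overlapped that of the next. Lower again were Bok (5.32 TPM) and Bad (4.54 TPM), whose ranges also overlapped, then Bcl2 (2.39 TPM, 1.63 to 3.17) and Bid (1.03 TPM, 0.671 to 1.44). The other neighbours in this order (Mcl1 and Bnip3, Bnip3 and Bcl2l2, Bak1 and Bok, Bad and Bcl2, Bcl2 and Bid) had ranges that did not overlap.

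**Figure D2:**
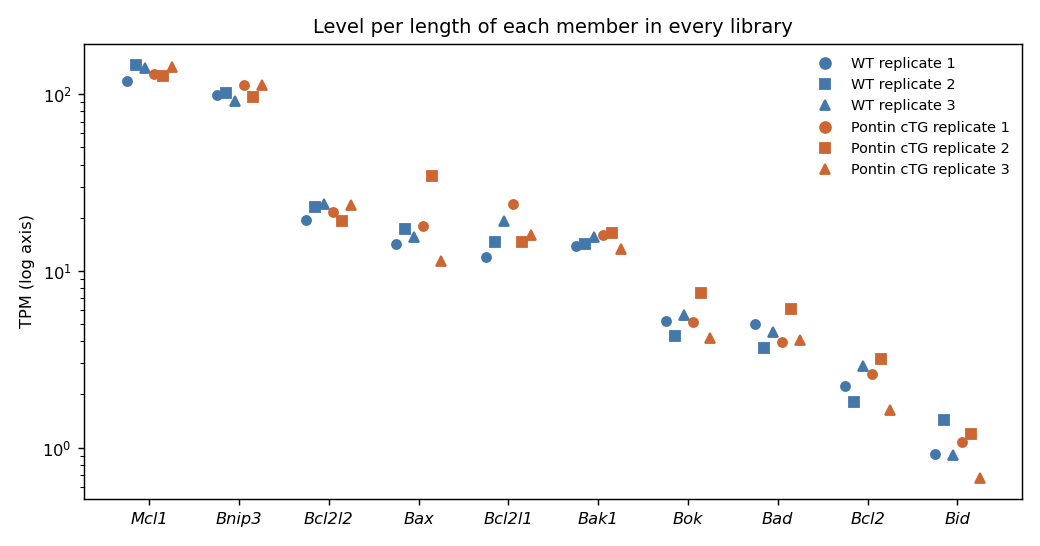
TPM of the 10 members (log y axis) in each of the 6 libraries, WT in blue and Pontin cTG in orange, with 1 symbol per replicate. Mcl1 and Bnip3 lie above the other 8 members in every library, and Bax of Pontin cTG replicate 2 (34.3 TPM) is the only value of the middle group above 24.

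Mcl1 made up most of the pro-survival mRNA per length, and Bcl2, the gene that names the family, the least. Mcl1 took between 73.1% and 78.9% of the summed TPM of the 4 pro-survival members in each library, and Bcl2 between 0.887% and 1.95%. The TPM of Mcl1 was 39.7 to 87.4 times that of Bcl2, with a median of 51.8. Summed TPM of the pro-survival members was 152.4, 186.2 and 187.2 in the WT hearts and 179.2, 163 and 183.7 in the Pontin cTG hearts. Both groups had a mean of 175.3.

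Mcl1 (ENSMUSG00000038612, GRCm39 3:95566099-95570487) encodes a short-lived pro-survival protein that cardiomyocytes need to keep their mitochondria intact. It had 2753, 3199 and 3166 normalised counts in the WT hearts and 2864, 2689 and 3365 in the Pontin cTG hearts, where a normalised count is a count scaled to a common library size and values stand in the order of replicates 1 to 3, here and below. The lowest and the highest value were both in Pontin cTG hearts, so the WT values lay within the spread of the other group. The means were 3039 ± 248.5 and 2972 ± 350.8 (SD, n = 3), and the log2 fold change was -0.032 (SE 0.15, 95% confidence interval -0.37 to 0.30), a range of 0.775-fold to 1.23-fold. The sign was positive, with values of 0.00092 to 0.036, without WT replicate 2, WT replicate 3, Pontin cTG replicate 1 or Pontin cTG replicate 2.

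Bcl2l2 (ENSMUSG00000089682, 14:55120834-55125691) encodes Bcl-w, which guards the same membrane. Its normalised counts were 583.6, 651.7 and 696.4 in WT and 617, 536.9 and 727.7 in the Pontin cTG hearts. The groups overlapped over the whole WT range, and the log2 fold change was -0.038 (SE 0.15, interval -0.37 to 0.30), turning to 0.063 when Pontin cTG replicate 2 was left out and to 0.030 when WT replicate 3 was. The read-through gene Gm20521, which spans Bcl2l2 on the same strand, had 0 counts in all 6 libraries, so how reads shared by both were assigned cannot be seen from it.

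Bcl2l1 (ENSMUSG00000007659, 2:152622588-152673648) encodes Bcl-xL and had the largest fitted difference among the pro-survival members. It was at 370, 422.9 and 577.9 normalised counts in WT and at 700, 416.1 and 509.4 in the Pontin cTG hearts. Only Pontin cTG replicate 1 lay above all WT values, and the other two lay within the WT range. The means were 456.9 ± 108.1 and 541.8 ± 144.7 (SD, n = 3), the log2 fold change was 0.24 (SE 0.22, interval -0.26 to 0.75), and a two-sided exact permutation test gave p = 0.6, where 3 against 3 cannot go below 0.1. Leaving out Pontin cTG replicate 1 gave 0.025, leaving out replicate 2 of that group gave 0.40, and the other omissions gave 0.12 (WT replicate 1) to 0.46 (WT replicate 3). With limma-voom, which gave each library a quality weight, it was 0.52 with an unadjusted p of 0.0358 and an adjusted p of 0.855, in a fit where 5.72% of all genes had an unadjusted p under 0.05.

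Bcl2 (ENSMUSG00000057329, 1:106465908-106642004) is the founding pro-survival gene. Its normalised counts were 137.7, 105.4 and 173.3 in WT and 153.3, 181.5 and 103.1 in the Pontin cTG hearts. Each group spanned nearly the whole range of the other, and the log2 fold change of 0.072 had an SE of 0.25 and an interval of -0.50 to 0.65. It was below 0 when WT replicate 2 (-0.092) or Pontin cTG replicate 2 (-0.12) was left out. A difference of up to 1.56-fold higher or down to 0.707-fold lay within the interval, and Bcl2 had 94 to 212 reads per library.

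**Figure D3:**
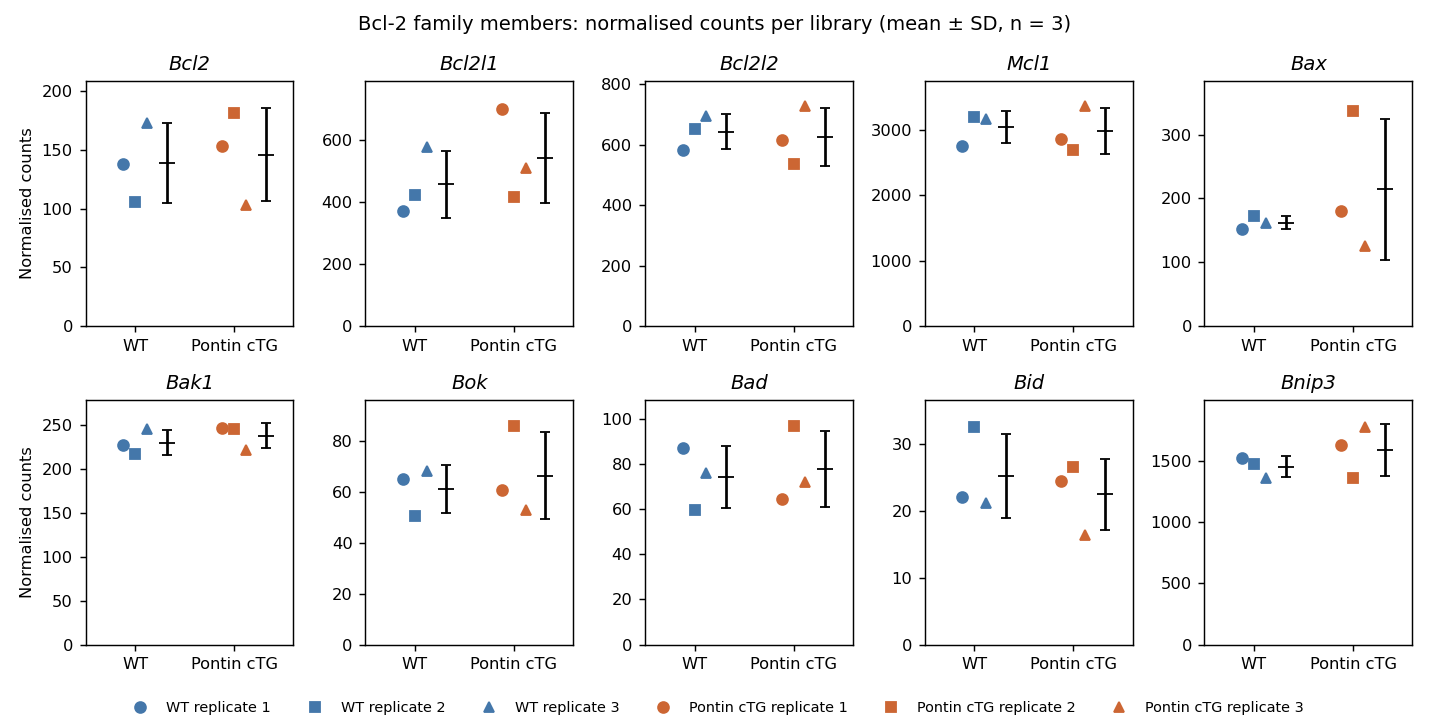
Normalised counts (y axis, from 0, a separate scale per gene) of the 10 members in WT (blue) and Pontin cTG hearts (orange), with 1 symbol per replicate and bars for the mean ± SD (n = 3). The groups overlap in all 10 panels, and the highest Bax value, 337.4 in Pontin cTG replicate 2, stands far above the 5 others.

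Bax (ENSMUSG00000003873, 7:45111121-45116322) encodes an effector that moves from the cytosol to the mitochondrion on activation, and it had the largest fitted log2 difference among the 10 members. It had 152, 172.7 and 161 normalised counts in the WT hearts and 180.6, 337.4 and 124.7 in the Pontin cTG hearts. The 3 WT hearts lay close together, while the Pontin cTG hearts held both the highest value, in replicate 2, and the lowest, in replicate 3. The WT mean was 161.9 ± 10.4 and the Pontin cTG mean 214.2 ± 110.2 (SD, n = 3). The log2 fold change was 0.41 (SE 0.32, interval -0.31 to 1.12, adjusted p = 0.999 in edgeR), a range of 0.805-fold to 2.18-fold, and the two-sided exact permutation test gave p = 0.7.

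The Bax difference rested on 1 library. Pontin cTG replicate 2 had 2.24 times the Bax level of the other two Pontin cTG hearts, and 4.48% of all genes tested stood at least as far above them in that library. Without it, the Bax log2 fold change was -0.088 (SE 0.18), below 0. Without Pontin cTG replicate 3, it was 0.68 (SE 0.25), the 2 remaining Pontin cTG values lay above all WT values, and the unadjusted edgeR p was 0.0278 with an adjusted p of 0.911. In the same 5 libraries, 2.87% of all genes had an unadjusted p under 0.05 and 17.9% did not overlap. The read counts behind the 2 extremes were 394 in Pontin cTG replicate 2 (exact Poisson 95% interval 356.1 to 434.9, counting error only) and 144 in replicate 3 (121.4 to 169.5). Gm45808, which overlaps Bax by 915 bases on the same strand, had 0 counts.

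The same library differed in some markers of other cells. Its summed atrial marker level was 7759 normalised counts, against 382 as the lowest Pontin cTG value and 879.4 to 1866 in WT. That sum was almost entirely Nppa, natriuretic peptide A, which the stressed ventricle also makes, at 7716 normalised counts, and the atrial markers Myl7 and Sln had only 11 and 3 counts over all 6 libraries. Endothelial markers (6 of 6 tested) summed to 16720 normalised counts in Pontin cTG replicate 2, against 12960 to 13080 in WT and 11190 as the lowest Pontin cTG value. Fibroblast markers (6 of 6) were at 1.38 times and macrophage markers (6 of 6) at 1.30 times the mean of the other 2 Pontin cTG hearts. Both sums were within the WT range (10800 to 16340 and 4296 to 7239 normalised counts). The sum of the cardiomyocyte markers (8 of 8) was at 1.14 times the same mean, but single markers went different ways. Ryr2 was at 10840 normalised counts in this library against 24380 and 16790 in the other 2 Pontin cTG hearts. Tnnt2 was at 82380 against 60110 and 78000. Smooth muscle and pericyte markers (5 of 6 tested, Tagln with 56 counts in all) summed to 19250 to 20750 normalised counts in WT and 16600 to 18140 in Pontin cTG hearts, with replicate 2 at the low end. Within that list the markers went different ways in this library, with Abcc9 at 2789 against 4772 and 4116 normalised counts in the other two Pontin cTG hearts, Myh11 at 1096 against 558.5 and 434, and Pdgfrb at 1112 against 978.3 and 809.9. For adipocytes, 0 of 5 markers were above the filter. Against the mean of the other 2 Pontin cTG hearts, erythroid markers (5 of 5) in this library were at 1.18 times. Lymphocyte markers (2 of 6) were at 1.56 times and neutrophil markers (3 of 4) at 0.378 times that mean. These sums (19440, 221.8 and 33.39 normalised counts) were within the WT ranges of 13190 to 22340, 129.9 to 337.6 and 13.21 to 97.59. The highest erythroid sum of the Pontin cTG hearts, 21220, was in another heart. The lymphocyte sum was mostly Ptprc, at 207.2 normalised counts. The part of any of these cells in the Bax value was not tested.

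Bak1 (ENSMUSG00000057789, 17:27238784-27247983), the effector that resides on the mitochondrion, had the smallest SE of the 10 members. Its normalised counts were 226.9, 216.5 and 244.8 in WT and 246, 244.9 and 220.9 in the Pontin cTG hearts. The groups overlapped in a narrow range, with means of 229.4 ± 14.3 and 237.3 ± 14.2 (SD, n = 3) and a log2 fold change of 0.049 (SE 0.13, interval -0.25 to 0.34). Pontin cTG replicate 2, which was high for Bax, was at 1.05 times the other two Pontin cTG hearts for Bak1. On the opposite strand, Ggnbp1 covers all 9200 bases of Bak1 and had 70 to 180 counts per library, and because the strand setting of the counting is not given in the sources used here, reads of both cannot be told apart with certainty.

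Bok (ENSMUSG00000026278, 1:93613382-93623486), an effector that acts at least in part at the endoplasmic reticulum, had 65, 50.5 and 68.2 normalised counts in WT and 60.5, 85.6 and 52.8 in the Pontin cTG hearts. Only Pontin cTG replicate 2 lay above the WT range. The log2 fold change was 0.12 (SE 0.26, interval -0.47 to 0.70), -0.11 when that library was left out and -0.0054 when WT replicate 2 was.

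Bad, Bid and Bnip3 share little beyond a BH3 region. Bad (ENSMUSG00000024959, 19:6919229-6929267) encodes a sensitiser that is kept inactive by phosphorylation through survival kinases such as Akt. Its normalised counts were 87, 59.5 and 76 in WT and 64.4, 96.8 and 71.9 in the Pontin cTG hearts. The groups overlapped over most of their range, and the log2 fold change was 0.069 (SE 0.24, interval -0.49 to 0.62), but -0.12 when Pontin cTG replicate 2 and -0.068 when WT replicate 2 was left out. Gpr137 overlaps Bad by 620 bases on the opposite strand and had 216 to 391 counts per library, more than Bad, which had 53 to 113.

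Bid (ENSMUSG00000004446, 6:120868891-120893814) links death receptors to mitochondria once caspase-8 has cut it, and it was the least abundant member. Its normalised counts were 22, 32.5 and 21.2 in WT and 24.4, 26.5 and 16.5 in the Pontin cTG hearts. The highest value was in WT and the lowest in Pontin cTG hearts, while the other 2 WT values lay below the other 2 Pontin cTG values. The log2 fold change was -0.17 (SE 0.35, interval -0.95 to 0.61), a range of 0.517-fold to 1.53-fold with only 19 to 31 reads per library behind it. Leaving out WT replicate 2 gave 0.052, Pontin cTG replicate 3 gave 0.014 and Pontin cTG replicate 2 gave -0.31. Bcl2l13, a relative of the family that overlaps Bid by 913 bases on the opposite strand, had 992 to 1897 counts per library.

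Bnip3 (ENSMUSG00000078566, 7:138492565-138511248) encodes a mitochondrial BH3 protein that hypoxia induces and that also draws mitochondria into autophagosomes. It had 1526, 1474 and 1358 normalised counts in WT and 1627, 1361 and 1773 in the Pontin cTG hearts. Pontin cTG replicates 1 and 3 lay above all WT values, and replicate 2 lay 3 counts above the lowest WT value. The WT mean was 1453 ± 86 and the Pontin cTG mean 1587 ± 208.7 (SD, n = 3), with a log2 fold change of 0.13 (SE 0.14, interval -0.20 to 0.45) and p = 0.4 in the two-sided exact permutation test. Leaving out Pontin cTG replicate 2 gave 0.23 (SE 0.11, unadjusted p = 0.0582 and adjusted p = 0.889 in edgeR) and groups that did not overlap, as for 21.5% of all genes in the same 5 libraries. Leaving out Pontin cTG replicate 3 gave 0.041, and the omission of any other library gave 0.089 to 0.17.

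Hearts of 1 group also differed among themselves. In Pontin cTG replicate 2, Bax (2.24), Bok (1.51), Bcl2 (1.44), Bad (1.42), Bid (1.32) and Bak1 (1.05) were at more than 1 time the level of the other two Pontin cTG hearts. The 4 others were below it, Mcl1 at 0.866, Bnip3 at 0.802, Bcl2l2 at 0.801 and Bcl2l1 at 0.697 times that level. Among the WT hearts, Bcl2 stood at -0.55 in WT replicate 2 and at 0.52 in WT replicate 3 on the log2 scale relative to the mean of the other two.

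**Figure D4:**
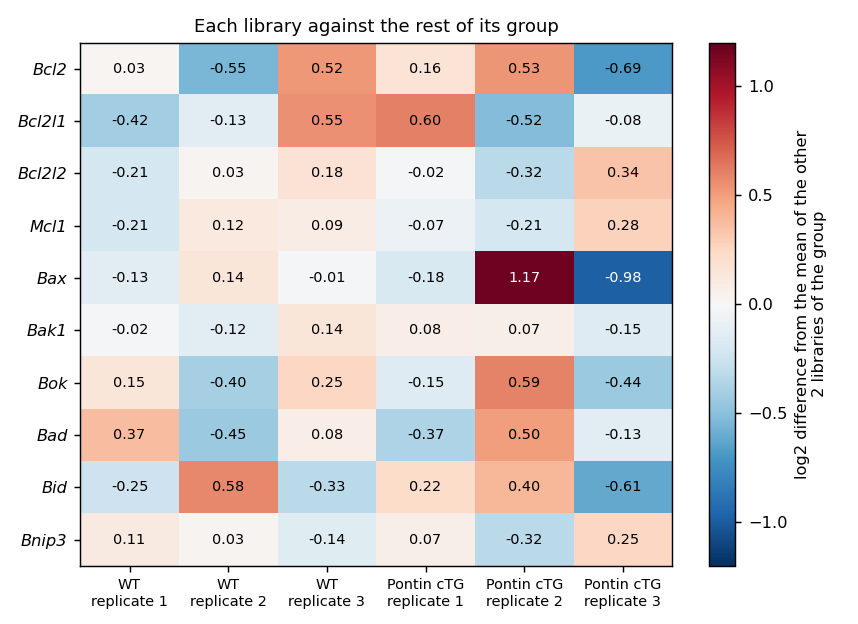
Log2 difference of each library (columns) from the mean of the other 2 libraries of its group, for the 10 members (rows), with red above and blue below it. The strongest cells are Bax in Pontin cTG replicate 2 (1.17) and in replicate 3 (-0.98), and Bak1 is within 0.16 of 0 in every library.

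Ratios of effectors to pro-survival members were highest in Pontin cTG replicate 2. Per length, effectors took 18%, 16.1% and 16.4% of the summed effector and pro-survival TPM in the WT hearts and 17.9%, 26.3% and 13.6% in the Pontin cTG hearts, so both extremes were Pontin cTG hearts. The log2 ratio of Bax to Bcl2 was 2.68, 3.25 and 2.43 in WT and 2.77, 3.43 and 2.81 in the Pontin cTG hearts. The means were 2.79 ± 0.42 and 3.01 ± 0.37 (SD, n = 3), a difference of 0.22 that was smaller than the spread within either group and was 0.0064 without Pontin cTG replicate 2. WT libraries moved it as well, to 0.041 without WT replicate 3 and to 0.45 without WT replicate 2. For Bax to Bcl2l1, the log2 ratio was 0.26, 0.25 and -0.30 in WT and -0.41, 1.24 and -0.49 in the Pontin cTG hearts, with only replicate 2 above the WT range.

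Around the members, 7 lists of pathway genes were read from the same fit. Of their 75 different genes, 67 were tested, and 0 passed an adjusted p of 0.05 or an unadjusted p of 0.05 in edgeR. The fitted value was higher in Pontin cTG hearts for 36 of them and lower for 31, and the median log2 fold change was 0.0076. In 6 of the 67 the groups did not overlap, a share near the 8.33% of all genes tested. Without Pontin cTG replicate 2, a fit added after the values were seen, the median of the 67 was 0.029, 0 passed an adjusted p of 0.05, 2 had an unadjusted p under 0.05 (Pink1 and Map1lc3a, with 4.91% of all genes at that threshold) and 14 did not overlap, against 21.5% of all genes.

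**Figure D5:**
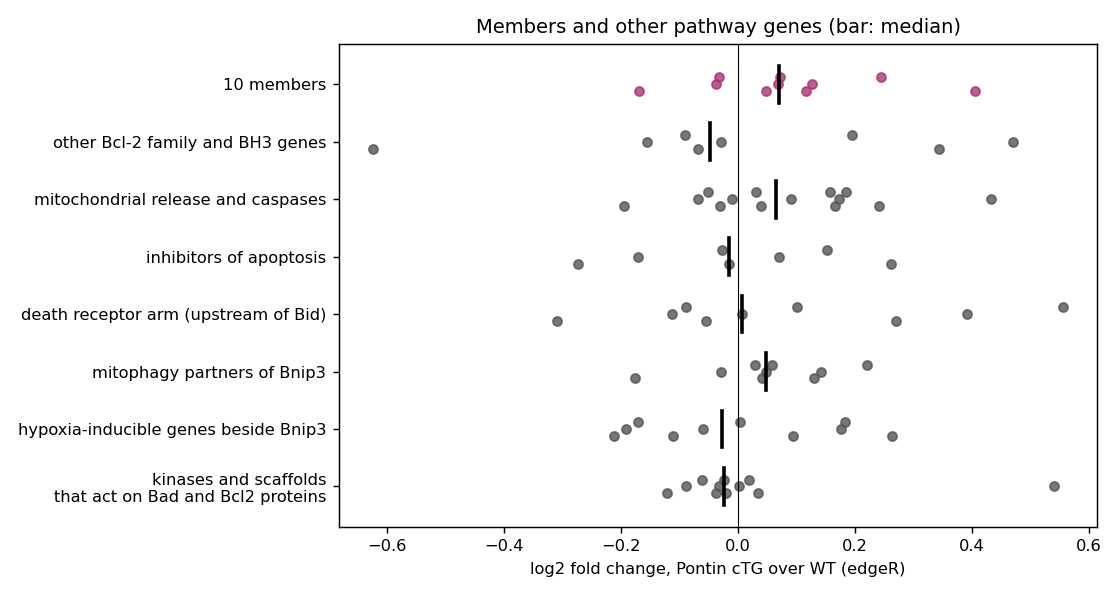
Log2 fold change (x axis, Pontin cTG over WT, edgeR, n = 3 per group) of the 10 members and of the genes of 7 pathway lists (rows), with 1 point per gene tested and a bar at the median of each row. The medians of the 7 lists lie between -0.048 and 0.066, and with all 6 libraries none of the points passed an adjusted or an unadjusted p of 0.05.

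Of 15 other Bcl-2 family and BH3 genes, 8 were tested (3 higher, 5 lower, median log2 fold change -0.048), and the 7 others, among them the haematopoietic Bcl2a1a, Bcl2a1b and Bcl2a1d and the BH3 gene Pmaip1 (Noxa), were too low, with 0 to 44 counts each over the 6 libraries. Bcl2l12 had 54, 47.1 and 50.3 normalised counts in WT and 56.6, 95.9 and 57.2 in Pontin cTG hearts, groups that did not overlap (log2 fold change 0.47, SE 0.27, or 0.17 without Pontin cTG replicate 2). Bik was at 0.34 (SE 0.34) and Hrk at -0.62 (SE 0.65), both BH3-only genes with low counts, and at -0.052 and -0.30 when that library was left out. Bcl2l13, a mitochondrial receptor for autophagy, was at -0.16 (SE 0.23), with 849.4 normalised counts in Pontin cTG replicate 2 and at least 1471 in every other library, and at 0.093 (SE 0.10) when replicate 2 was left out.

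Downstream of the mitochondrion, all 14 genes for released proteins and caspases were tested (9 higher, 5 lower, median 0.066). Diablo, whose protein is released with cytochrome c and blocks caspase inhibitors, was at 0.43 (SE 0.25), and Endog, a mitochondrial nuclease, at 0.24 (SE 0.14). Casp6, an executioner caspase, was at -0.19 (SE 0.22), and Apaf1, the core of the apoptosome, at -0.068 (SE 0.16). None of the 4 passed the test, and the groups overlapped for each. When Pontin cTG replicate 2 was left out, Diablo was at 0.22 and Casp6 at -0.33, and the list's median was 0.099.

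The inhibitors of apoptosis (7 of 7 tested, 3 higher, 4 lower, median -0.015) held 1 gene without overlap. Xiap, which blocks caspases directly, had 965.8, 932.2 and 871.9 normalised counts in WT and 843.6, 786.9 and 829 in Pontin cTG hearts (log2 fold change -0.17, SE 0.12, adjusted p = 0.999 in edgeR). Birc6 was at -0.27 (SE 0.22), Birc5 at 0.26 (SE 0.74) and Naip5 at 0.15 (SE 0.63). Naip5 had 54.8 normalised counts in Pontin cTG replicate 2 and 13.7 and 10.4 in the other two Pontin cTG hearts. When replicate 2 was left out, Naip5 was at -0.98 (SE 0.47), Birc5 at -0.070 and Xiap at -0.14, and the list's median was -0.14.

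The death receptor arm upstream of Bid (9 of 10 genes tested, 5 higher, 4 lower, median 0.0076) also held 1 gene without overlap. Fas, the receptor, had 132.1, 179.5 and 193.4 normalised counts in WT and 231.4, 235.5 and 195.8 in Pontin cTG hearts. All 3 Pontin cTG values were above the highest WT value, replicate 3 by a narrow margin (log2 fold change 0.39, SE 0.18, unadjusted p = 0.0541 and adjusted p = 0.999 in edgeR). Tnfrsf10b, the TRAIL receptor, was at 0.56 (SE 0.30), Ripk1 at -0.31 (SE 0.22) and Cflar, which holds caspase-8 back, at -0.11 (SE 0.12). The ligand gene Fasl had 3 counts in all and was not tested. When Pontin cTG replicate 2 was left out, Fas was at 0.34 (SE 0.18), Tnfrsf10b at 0.39 and the list's median at -0.026.

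For Bnip3, the mitophagy list (9 of 9 tested, 7 higher, 2 lower, median 0.049) and the list of hypoxia-inducible genes (10 of 10, 5 higher, 5 lower, median -0.028) were read. Bnip3l (Nix), its closest relative, was at -0.028 (SE 0.13), and Fundc1, another mitophagy receptor, at -0.18 (SE 0.16). Map1lc3a, the autophagosome protein that such receptors bind, was at 0.22 (SE 0.15) and the adaptor Sqstm1 at 0.14 (SE 0.13). Slc2a1, the glucose transporter GLUT1, had 165.2, 149.2 and 156.5 normalised counts in WT and 186.5, 184.1 and 194.9 in Pontin cTG hearts, groups that did not overlap (0.26, SE 0.14). Vegfa was at 0.18 (SE 0.21), with 4567 normalised counts in Pontin cTG replicate 2 and 2632 to 3009 in the 5 others, while Hk2 was at -0.21 (SE 0.16) and Ero1a at -0.17 (SE 0.17). When Pontin cTG replicate 2 was left out, Vegfa was at -0.11, Hk2 at -0.075, Fundc1 at -0.031 and Map1lc3a at 0.30 (unadjusted p = 0.0329 and adjusted p = 0.889 in edgeR). The medians were then 0.13 for the mitophagy list and -0.023 for the hypoxia list.

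Kinases and scaffolds that act on the Bad and Bcl2 proteins (11 of 11 tested, 4 higher, 7 lower, median -0.023) had log2 fold changes from -0.12 to 0.54. Akt1, which phosphorylates Bad, was at -0.089 (SE 0.16), Mapk8 (JNK1) at -0.12 (SE 0.18) and Pim1 at 0.035 (SE 0.17). Sfn, a 14-3-3 scaffold, was at 0.54 (SE 0.36), with 12.1 to 19.1 normalised counts in WT and 19.5 to 30.3 in Pontin cTG hearts, groups that did not overlap at a low level. When Pontin cTG replicate 2 was left out, Mapk8 was at 0.054, Pim1 at 0.12 and the list's median at 0.054.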

How the data were processed

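RNA was extracted with Trizol from heart tissue of 6 mice (3 Pontin cTG, 3 WT) and each heart gave 1 library. The authors deposited whole-number counts per Ensembl gene with gene lengths, not normalised. The sources differ on how the authors made the counts: the submitters' processing notes name fastp, HISAT2, featureCounts, DESeq2 and GRCm39, while the methods of the study name Trimmomatic, STAR, mm10 and Gencode M25. Gene coordinates of the table equalled those of GENCODE M21 on GRCm38 for 0 of the 10 members, so they are given as GRCm39, the build of the notes, and the strand setting is not given in the sources used here. All columns of sample values were matched by the column names in the labels (0 unmatched).

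Genes were kept by filterByExpr (minimum count 10), scaled by TMM and compared with edgeR 4.0.16 (glmQLFit robust, glmQLFTest, genotype only) in R 4.3.3, with Benjamini-Hochberg adjustment over 13888 genes. The SE is the log2 fold change divided by the square root of F. Intervals are at 95%. The groups of single members were also compared by exact permutation. The members, lists and tests were chosen with earlier results of these data known. Genes named are the 10 members, up to 2 genes per direction with the smallest p in each list, Ruvbl1, and genes that overlap a member. The markers Nppa, Myl7, Sln, Tagln, Abcc9, Myh11, Pdgfrb, Ryr2, Tnnt2, Adgre1, Lyz2 and Ptprc were added after their values were seen. So were the untested Bcl2a1a, Bcl2a1b, Bcl2a1d, Pmaip1 and Fasl, and Pink1, Scd4, Npc1, Tfrc, Egr1 and Impact. The fit of the pathway lists without Pontin cTG replicate 2 was also added then. Alternatives were DESeq2 1.42.0, limma-voom (limma 3.58.1), other scalings and filters, the replicate number as a block, Bnip3 left out, and each library left out in turn. Tests were first run on simulated data. The methods mention the exclusion of a PCA outlier without naming it, while the statistics section of the study reports no exclusion of data. All 6 libraries were used here. Every pair of libraries differed by more than sampling noise (chi-square per gene of at least 5.62). Libraries were treated as unpaired.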

Additional observations from a re-analysis of the deposited data

How the results depend on the processing

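Under the 15 alternatives run for each member, 0 members passed an adjusted p of 0.05, with adjusted p values between 0.855 and 0.9998. Over all genes, the count called was 1 in DESeq2 (Scd4), 3 without a filter on low counts (Npc1, Scd4 and Tfrc) and 3 in limma-voom (Egr1, Impact and Scd4), and 0 to 3 when a library was left out, with 3 (the same genes as in limma-voom) without Pontin cTG replicate 2. In DESeq2, 217 genes had an unadjusted p under 0.05. The count of members with an unadjusted p under 0.05 was 1 in limma-voom (Bcl2l1, with 794 of all genes, 5.72%). It was 0 to 1 when a library was left out (Bax, without Pontin cTG replicate 3, with 408 of all genes, 2.87%). The count of members without overlap was also 0 to 1. The member was Bnip3 without Pontin cTG replicate 2, where 21.5% of all genes did not overlap. Without Pontin cTG replicate 3 it was Bax, where 17.9% of all genes did not overlap. The median of the members ranged from -0.031 to 0.11 when a library was left out. In limma-voom, the log2 fold changes of Bcl2 (-0.072), Bcl2l2 (0.054), Mcl1 (0.044), Bok (-0.11) and Bad (-0.22) had the opposite sign. With a library left out, the values ranged from -0.12 to 0.27 for Bcl2, from -0.16 to 0.063 for Bcl2l2, from -0.13 to 0.036 for Mcl1, from -0.088 to 0.68 for Bax, from -0.11 to 0.26 for Bok, from -0.12 to 0.20 for Bad, from -0.31 to 0.052 for Bid, from 0.041 to 0.23 for Bnip3 and from 0.0064 to 0.45 for the log2 ratio of Bax to Bcl2. Bcl2l1, Bak1 and Bnip3 kept their sign in all 15 alternatives. With the replicate block, 0 genes were called, 0 members passed an unadjusted p of 0.05 and the median of the members was 0.063, with Bax at 0.30. With the block, 499 genes had an unadjusted p under 0.05. The numbers were not taken as pairs: the sources name no shared litter or batch, and 2 of 6 libraries correlated best with their own number. Libraries with the same number deviated from their groups with correlations of 0.064 (number 1), 0.43 (number 2) and 0.18 (number 3). The causes of these changes were not tested, and each fit with a library left out also had fewer samples. With 3 hearts per group, the intervals of the members spanned from 0.517-fold (Bid) to 2.18-fold (Bax), and Bid had the fewest reads.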
